A study of Homo sapiens with 18 samples.

Results

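The genes NFE2L2 (the transcription factor NRF2), KEAP1 (its inhibitor) and 7 antioxidant targets of NRF2, 9 of the 36684 genes in the count table, were followed across the 6 groups of an RNA-seq experiment. They were taken by name, the targets being HMOX1, NQO1, GCLM, GCLC, TXNRD1, SRXN1 and OSGIN1. No measured value entered the choice of names, although earlier results of the same data were known. All 9 passed the filter on low counts, which 14557 genes passed in all, and the lowest count of any of them was 39 (NQO1 in a control library).

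The cells were Hep3B, a human hepatoma line, sequenced after enrichment of polyadenylated RNA in 6 groups of 3 libraries. Con was the untreated control. Model was given free fatty acids (FFA), which load the cells with fat. FUCO-0.5, FUCO-1 and FUCO-2 received FFA together with 0.5, 1 or 2 μM fucoxanthin (FUCO), a carotenoid of brown algae. RES received FFA together with Resmetirom, an agonist of thyroid hormone receptor-β. The FFA concentration, the RES dose and the treatment times are not given for these libraries in the sources used here. All treated groups carried FFA, so Model was the reference for FUCO and RES, and no group received either compound without FFA. A single cell line limits the measurements to Hep3B.

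KEAP1 holds NRF2 in the cytoplasm and passes it to a ubiquitin ligase for degradation. Electrophiles and oxidants modify cysteines of KEAP1, after which newly made NRF2 escapes, enters the nucleus, pairs with a small MAF protein and binds antioxidant response elements near its target genes. Much of the pathway's control therefore acts on NRF2 protein, which RNA counts do not show. The targets make glutathione, recycle thioredoxin, reduce quinones and break down heme. In the liver they also protect hepatocytes against drugs and fatty acid oxidation products.

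The core letters of an antioxidant response element, TGACNNNGC (N is any base), were searched on both strands of RefSeq promoter windows of GRCh38.p14 that run from 250 bases before to 50 bases after a start site. Windows were at hand for 8 of the 9 genes (11 windows in all). HMOX1 had no entry. The letters were found in 4 windows of 3 genes, KEAP1, GCLM and TXNRD1, and in 13.3% of all 35116 windows of the same length. The matches are shown, since they are the stretches of these promoters that carry the element's letters, each with 10 bases on either side and the match in capitals, read 5′ to 3′ on the strand that carries it. KEAP1's lie in chr19:10502722-10503021 (gene on the minus strand), GCLM's in chr1:93909381-93909680 (minus strand), and TXNRD1's in chr12:104215529-104215828 and, for a second start site, chr12:104286782-104287081 (plus strand).
KEAP1, gene strand: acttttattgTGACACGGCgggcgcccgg
KEAP1, opposite strand: caggtcaccaTGACTAAGCagagccgggc
GCLM, opposite strand: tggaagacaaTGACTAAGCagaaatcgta
TXNRD1, first start, gene strand: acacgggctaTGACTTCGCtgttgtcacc
TXNRD1, first start, opposite strand: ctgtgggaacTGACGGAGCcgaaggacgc
TXNRD1, second start, opposite strand: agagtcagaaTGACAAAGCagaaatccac
The AP-1 letters TGACTCA, which share TGAC with the element, were found once in the OSGIN1 window and in 4.95% of all windows. No window of the 9 genes held both motifs overlapping on one strand, a form found in 0.561% of all windows. A match describes letters only and is no evidence of binding. A window without a match says nothing of elements outside its 300 bases, which were not searched.

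In RefSeq annotation of GRCh38.p14 the genes lie apart from each other, apart from NQO1 (chr16:69709401-69726560) and OSGIN1 (chr16:83953240-83966332), which share a chromosome. NFE2L2 lies at chr2:177230303-177264727, KEAP1 at chr19:10486125-10503356, HMOX1 at chr22:35381096-35394207, GCLM at chr1:93885199-93909430, GCLC at chr6:53497341-53545101, TXNRD1 at chr12:104215779-104350307 and SRXN1 at chr20:646615-653200. Counts are per whole gene, exons together. Strand use in counting is not stated, and some of these genes overlap others. MIR3128, within NFE2L2, held at most 4 counts in a library and NECAB2, which overlaps the end of OSGIN1, at most 7. EID3 lies within TXNRD1 on the same strand (chr12:104303739-104305205) and held 4 to 120 counts. The pseudogene RPL18AP3, also within TXNRD1, held 133 to 271.

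Libraries held 16916688 to 23083498 counts. Levels are CPM, each count scaled by its library total after TMM adjustment, and a value with ± is the mean and SD of 3 libraries. On the first principal component of all tested genes the RES libraries stood at 61.6 to 64.3 and the other 15 at -23.7 to 0.297. The summed level of 7 hepatocyte markers (ALB, AFP, APOA1, APOB, TTR, SERPINA1, HNF4A) was 56981 to 61317 CPM in Con, 47246 to 48035 in Model, 39541 to 50112 in FUCO-0.5, 41760 to 43556 in FUCO-1, 31941 to 36155 in FUCO-2 and 13947 to 14190 in RES. All 7 markers fell in RES against Model, and 6 fell in FUCO-2 against Model while HNF4A was not called. The defining marker of leukocytes, PTPRC, held at most 2 counts in a library, PECAM1 of endothelium at most 36 and COL1A1 of fibroblasts at most 56. PECAM1 held 13, 3 and 3 counts in Con and 21, 25 and 23 in Model, a called difference (adjusted p = 0.00488), and was lower in RES than in Model (-0.92), while COL1A1 was higher in RES (0.62). KRT19 of bile duct cells, at 1764 to 4620 counts, was 242 ± 7.49 CPM in Model, 185 ± 36.0 in FUCO-2 and 102 ± 14.04 in RES, both called lower. The part of these markers' changes in the results that follow was not tested. The cultures were of 1 line, Hep3B, so the markers of other cells name cell types that were not put into them. Within the line, bulk RNA cannot tell fewer cells in a given state from less RNA per cell.

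Con replicate 1 was the highest Con library for 8 of the 9 genes, and RES replicate 3 the lowest RES library for 8 of 9. Values without them are given where they matter.

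**Figure D1:**
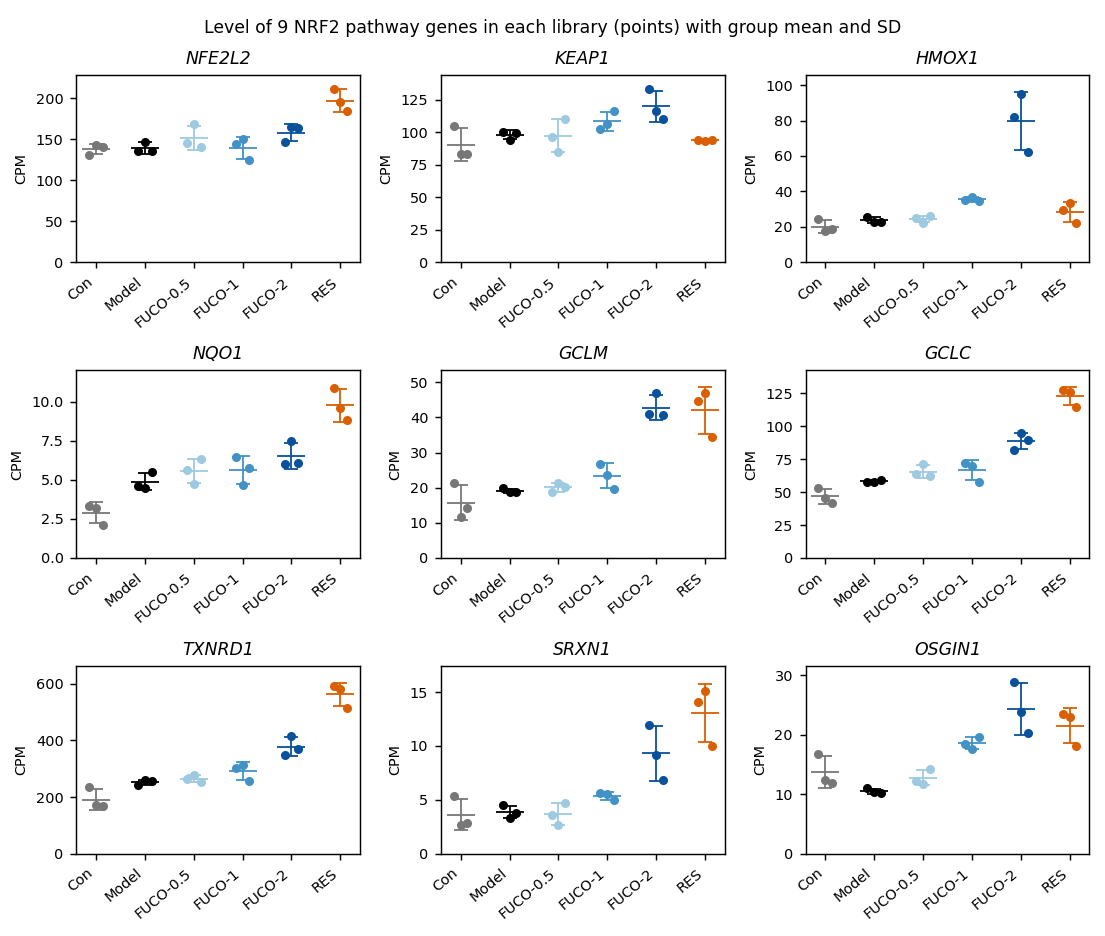
Level of each gene in CPM (vertical axis from 0, a scale of its own for each gene) in the 6 groups, with each library as a point, the group mean as a horizontal line and the SD as a bar. HMOX1 in FUCO-2 (62.4 to 94.8 CPM) lies above every other library, while NQO1, GCLC and TXNRD1 are highest in RES.

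A gene was called when its Benjamini-Hochberg adjusted p over all 14557 genes was under 0.05 in edgeR's quasi-likelihood test, which gave every adjusted p below. A differentially expressed gene (DEG) also had an absolute log2 fold change over 1, the threshold of the study's methods.

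FFA alone raised 3 of the 9 genes, NQO1, GCLC and TXNRD1, by 1.25- to 1.69-fold over Con. FUCO at 2 μM raised 7 above Model, led by HMOX1 at 3.36-fold, and RES also raised 7, led by SRXN1 at 3.36-fold. Both sets held GCLM, GCLC, TXNRD1, SRXN1 and OSGIN1. HMOX1 and KEAP1 were called in FUCO-2 and not in RES, and NFE2L2 and NQO1 in RES and not in FUCO-2. A direct comparison of RES with FUCO-2, added after the data had been seen, called HMOX1 and KEAP1 lower and NFE2L2 and NQO1 higher in RES. No member fell in either compound's comparison with Model.

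These counts stand against large backgrounds. Of all tested genes, 17.6% were called in Model against Con and 8.43% called higher. The DEG rule took 1.95% of tested genes there and none of the 9. In FUCO-0.5 against Model 1.45% were called and none of the 9, no member had an unadjusted p under 0.05, and DESeq2 called none of them. In FUCO-1 against Model 2 of the 9 rose, HMOX1 and OSGIN1, where 3.21% of genes were called and 0.893% called higher. Neither met the DEG rule, which 0.495% of genes met.

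For FUCO-2 against Model the 7 called genes of 9, all higher, compare with 20.5% of tested genes called and 10.8% called higher. HMOX1, GCLM, SRXN1 and OSGIN1 were DEGs, against 0.872% of genes that were DEGs and higher. In RES against Model, where the 7 were again all higher, 49.4% of genes were called and 24.4% called higher. All but NFE2L2 of these, 6 genes, were DEGs, against 3.0% of genes that were DEGs and higher. The median log2 fold change of the 9 was 0.23 in Model against Con, 0.07 in FUCO-0.5, 0.21 in FUCO-1, 0.61 in FUCO-2 and 1.04 in RES, each of the last 4 against Model. All tested genes had a median near 0 in every comparison, between -0.015 and 0.014. All 5 comparisons share the Model libraries.

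**Figure D2:**
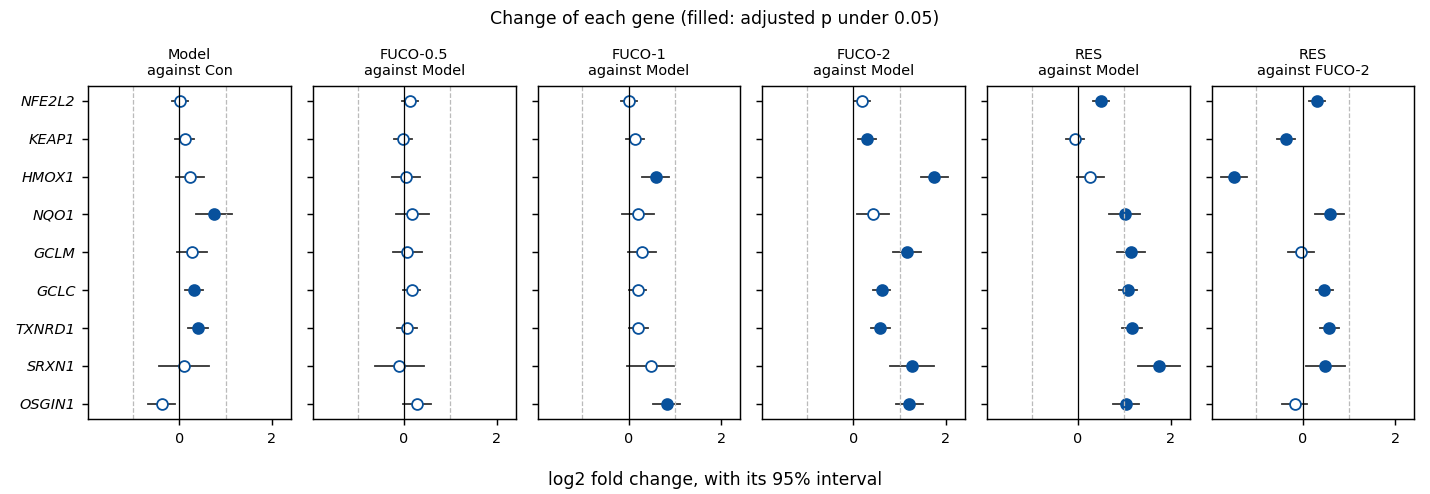
Log2 fold change of each gene (horizontal axis, point with its 95% interval) in 6 comparisons, filled where the adjusted p was under 0.05, with dashed lines at -1 and 1. In FUCO-2 against Model HMOX1 lies farthest right at 1.75, in RES against Model SRXN1 does at 1.75, and in RES against FUCO-2 HMOX1 lies farthest left at -1.49.

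NFE2L2 encodes NRF2 itself. Its level was 131, 143 and 141 CPM in Con, 136, 147 and 135 in Model, 145, 169 and 141 in FUCO-0.5, 144, 151 and 124 in FUCO-1, 146, 164 and 163 in FUCO-2 and 211, 195 and 184 in RES. The RES libraries lay above all others, and the other 5 groups overlapped with each other apart from FUCO-2, whose libraries all lay above those of Con. In RES it rose by a log2 fold change of 0.50 over Model (SE 0.083, adjusted p = 2.16e-05) and by 0.32 over FUCO-2 (adjusted p = 0.00265). Model differed from Con by 0.01, with a 95% interval from -0.16 to 0.18. FUCO-2 differed from Model by 0.18 (0.01 to 0.35, adjusted p = 0.124) and was not called.

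KEAP1, the adaptor that presents NRF2 to the CUL3 ubiquitin ligase, moved little. Its libraries read 105, 83.4 and 83.0 CPM in Con, 100.4, 94.1 and 99.5 in Model, 96.2, 84.8 and 110.2 in FUCO-0.5, 102, 106 and 116 in FUCO-1, 133, 116 and 109.7 in FUCO-2 and 94.1, 93.3 and 94.3 in RES. All FUCO-2 libraries lay above those of Con, Model and RES, and those of RES lay within the range of Con. Against Model the rise in FUCO-2 was 0.29 (SE 0.095, adjusted p = 0.0328). That call was lost without any 1 Model library or without FUCO-2 replicate 1 or 2 (adjusted p from 0.0542 to 0.147), and with RES left out of the fit (0.0505). In RES the log2 fold change was -0.06 over Model (-0.26 to 0.13) and -0.35 against FUCO-2 (adjusted p = 0.00369).

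HMOX1 encodes heme oxygenase-1, which opens the heme ring and yields biliverdin, carbon monoxide and iron. It held 24.4, 17.6 and 18.7 CPM in Con, 25.7, 22.9 and 22.5 in Model and 25.02, 22.3 and 25.9 in FUCO-0.5. The FUCO-1 libraries held 35.1, 37.0 and 34.5, the FUCO-2 libraries 81.8, 94.8 and 62.4 and the RES libraries 29.6, 33.5 and 22.4. Every FUCO-1 library lay above every library of Con, Model, FUCO-0.5 and RES, and every FUCO-2 library above those of FUCO-1. RES overlapped with Model.

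The mean of HMOX1 went from 23.7 ± 1.71 CPM in Model to 24.4 ± 1.86, 35.5 ± 1.29 and 79.7 ± 16.3 at the rising FUCO doses. The log2 fold changes over Model were 0.04 (SE 0.14, -0.25 to 0.34), 0.58 (SE 0.14, adjusted p = 0.0186) and 1.75 (SE 0.14, 1.46 to 2.03, adjusted p = 5.67e-09). The call at 1 μM was lost without Model replicate 2 or 3 or FUCO-1 replicate 2 or 3 (adjusted p from 0.0506 to 0.0915). The step from 1 to 2 μM was 1.17 (SE 0.13, adjusted p = 8.40e-06), the only DEG among the 9 in that comparison. Against Con, FUCO-2 stood at 1.98, or 3.94-fold (adjusted p = 2.50e-10).

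In RES HMOX1 was at 28.5 ± 5.63 CPM, 0.26 above Model on the log2 scale (SE 0.14, -0.03 to 0.55, adjusted p = 0.124), and without RES replicate 3 it was at 0.41 and called (adjusted p = 0.0206). It was also called with no filter on low counts (0.0258) and with 2 groups in the fit (0.0322). RES lay 1.49 below FUCO-2 on the log2 scale, a value of -1.49 (-1.76 to -1.21, adjusted p = 2.60e-09). HMOX1 was the only DEG of the 9 there, where 9.02% of genes were DEGs. Both groups differ from Model in many genes, and doses of the compounds are not matched.

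NQO1, a quinone reductase that uses NADH or NADPH, had the library with the fewest counts of the 9. Its libraries read 3.35, 3.22 and 2.11 CPM in Con, 4.61, 4.51 and 5.52 in Model, 5.60, 4.76 and 6.31 in FUCO-0.5, 6.44, 4.64 and 5.77 in FUCO-1, 5.99, 7.45 and 6.07 in FUCO-2 and 10.9, 9.58 and 8.82 in RES. Con lay below all other groups and RES above all, with the FUCO groups between. It rose by 0.76 in Model against Con (SE 0.19, adjusted p = 0.00598, 0.0635 without Con replicate 3). In FUCO-2 it was 0.42 above Model (SE 0.17, adjusted p = 0.0798) and was not called, although every FUCO-2 library exceeded every Model library. RES raised it by 1.00 over Model (SE 0.16, adjusted p = 1.12e-05) and 0.59 over FUCO-2 (adjusted p = 0.00269).

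GCLM and GCLC are the modifier and the catalytic subunit of glutamate-cysteine ligase, the rate-limiting enzyme of glutathione synthesis. GCLM, whose promoter letters are shown above, read 21.2, 11.7 and 14.2 CPM in Con, 19.8, 18.7 and 18.8 in Model, 18.9, 21.3 and 20.1 in FUCO-0.5, 26.7, 23.7 and 19.7 in FUCO-1, 40.8, 46.8 and 40.7 in FUCO-2 and 44.5, 46.9 and 34.5 in RES. FUCO-2 and RES overlapped with each other and with no other group. The log2 fold change over Model was 1.16 in FUCO-2 (SE 0.15, adjusted p = 4.51e-06) and 1.14 in RES (SE 0.14, adjusted p = 5.42e-07). RES against FUCO-2 gave -0.03, with an interval from -0.31 to 0.25.

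GCLC read 52.8, 45.5 and 41.8 CPM in Con, 57.7, 57.9 and 59.0 in Model, 63.4, 70.9 and 62.1 in FUCO-0.5, 71.9, 70.1 and 57.7 in FUCO-1, 82.1, 94.9 and 89.3 in FUCO-2 and 128, 126 and 115 in RES. The order Con, Model, FUCO-2, RES had no overlap between neighbours. It rose by 0.32 in Model against Con (SE 0.092, adjusted p = 0.0177), a call lost without Con replicate 2 or 3 or Model replicate 3 (adjusted p from 0.0608 to 0.129). Over Model it rose by 0.61 in FUCO-2 (SE 0.090, adjusted p = 4.03e-05) and by 1.08 in RES (SE 0.090, adjusted p = 4.72e-10). Unlike GCLM, GCLC was higher in RES than in FUCO-2, by 0.47 (adjusted p = 0.000110). Whether the 2 subunits' responses differ was not tested.

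TXNRD1 is cytosolic thioredoxin reductase, a selenoprotein, and SRXN1 is sulfiredoxin, which restores over-oxidised peroxiredoxins. TXNRD1 was at 234, 172 and 167 CPM in Con, 243, 259 and 256 in Model, 264, 277 and 253 in FUCO-0.5, 304, 314 and 258 in FUCO-1, 349, 416 and 368 in FUCO-2 and 593, 582 and 517 in RES. Con, Model, FUCO-2 and RES again followed each other without overlap. Model exceeded Con by 0.40 (SE 0.10, adjusted p = 0.00759), a call lost without Con replicate 2 (0.0612) or 3 (0.0720). FUCO-2 exceeded Model by 0.58 (SE 0.10, adjusted p = 0.000256) and RES did so by 1.16 (SE 0.10, adjusted p = 1.32e-09). RES lay 0.58 above FUCO-2 (adjusted p = 4.89e-05). EID3, within TXNRD1, moved otherwise: its log2 fold change over Model was -1.71 in FUCO-0.5, -2.71 in FUCO-1, 0.37 in FUCO-2 (adjusted p = 0.341) and 1.66 in RES. EID3 reached at most 5.33 CPM.

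SRXN1 held 5.32, 2.69 and 2.87 CPM in Con, 4.50, 3.34 and 3.79 in Model, 3.62, 2.61 and 4.69 in FUCO-0.5, 5.65, 5.52 and 4.97 in FUCO-1, 11.9, 9.16 and 6.83 in FUCO-2 and 14.1, 15.1 and 9.98 in RES. Libraries of FUCO-2 and RES overlapped with each other and exceeded all others. Over Model SRXN1 rose by 1.26 in FUCO-2 (SE 0.23, adjusted p = 0.000410) and by 1.75 in RES (SE 0.22, adjusted p = 5.45e-07). The FUCO-1 value was 0.47 (SE 0.24, adjusted p = 0.344), with every library above Model and no call. RES exceeded FUCO-2 by 0.49 (adjusted p = 0.0469). That call was lost in DESeq2 (0.0710), with at least 10 counts asked of every library (0.0544), with 2 groups in the fit (0.0550) and without FUCO-2 replicate 2 or 3 or RES replicate 1 or 2 (0.0963 to 0.234).

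OSGIN1, an oxidative stress-induced growth inhibitor, was the only one of the 9 with a lower mean in Model than in Con. Its libraries read 16.7, 12.4 and 11.8 CPM in Con, 10.97, 10.3 and 10.2 in Model, 12.2, 11.8 and 14.2 in FUCO-0.5, 18.5, 17.5 and 19.5 in FUCO-1, 28.9, 23.7 and 20.2 in FUCO-2 and 23.5, 22.9 and 18.1 in RES. All Model libraries lay below all others. Against Con the value was -0.38 (SE 0.14, adjusted p = 0.0708) and not called, though it was called with no filter on low counts (0.0211) and without Con replicate 3 (0.0473). Over Model OSGIN1 was at 0.28 in FUCO-0.5 (SE 0.14, -0.02 to 0.58), not called. It rose by 0.82 in FUCO-1 (SE 0.14, adjusted p = 0.000682), 1.21 in FUCO-2 (SE 0.14, adjusted p = 1.14e-06) and 1.04 in RES (SE 0.14, adjusted p = 9.66e-07). RES and FUCO-2 differed by -0.18 (-0.44 to 0.09, adjusted p = 0.266).

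The step from FUCO-1 to FUCO-2 was also compared directly. HMOX1, GCLM (0.87, SE 0.14, adjusted p = 0.000457), GCLC (0.41, adjusted p = 0.00625), TXNRD1 (0.37, adjusted p = 0.0285) and SRXN1 (0.79, SE 0.22, adjusted p = 0.0330) rose, 5 of 9 against 6.30% of genes called, 4.07% called higher and 0.536% DEGs and higher. OSGIN1 was higher in every FUCO-2 library by 0.39 (adjusted p = 0.0740), and NFE2L2, KEAP1 and NQO1 were at 0.18, 0.15 and 0.21 without a call. SRXN1 lost its call without any 1 FUCO-1 library or FUCO-2 replicate 1 or 2 (adjusted p from 0.0667 to 0.136). TXNRD1 lost its call without FUCO-1 replicate 1 (0.0553) or 3 (0.173) or FUCO-2 replicate 2 (0.165), and GCLC without FUCO-1 replicate 3 (0.0545). OSGIN1 was called without FUCO-2 replicate 3 (0.0234) and with no filter on low counts (0.0136).

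Set against Con rather than Model, FUCO-2 raised 8 of 9, all but NFE2L2 (0.19, adjusted p = 0.0921), where 24.8% of genes were called and 13.0% called higher. HMOX1, NQO1, GCLM and SRXN1 were DEGs, against 1.81% of genes. RES against Con likewise raised 8, all but KEAP1 (0.05, adjusted p = 0.647), with 57.3% of genes called, 28.8% called higher and 4.90% DEGs and higher. The 5 DEGs were NQO1, GCLM, GCLC, TXNRD1 and SRXN1, from 1.40 (GCLC) to 1.85 (SRXN1). HMOX1 was called there at 0.49 (adjusted p = 0.00486) with overlapping libraries. Between RES and FUCO-2, 5 of 9 were higher in RES and 2 lower, where 48.4% of genes were called, 22.5% higher and 26.0% lower.

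Con replicate 1 carried much of the spread of the control group. Without it 4 of the 9 were called in Model against Con, the added gene being GCLM at 0.55 (adjusted p = 0.00576). NQO1 then stood at 0.88 (adjusted p = 0.00390), GCLC at 0.42 (0.00254) and TXNRD1 at 0.57 (5.27e-05). Without Con replicate 2 only NQO1 was called, higher. Without Con replicate 3 none of the 3 raised genes was called, and the 1 called gene was OSGIN1, lower in Model (-0.48, adjusted p = 0.0473).

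Between genes, levels were compared per kilobase of exon. The length was that of all exons annotated for a gene in GENCODE v44, every transcript form together. It ran from 2306 bases (HMOX1) to 14975 (NFE2L2) and can exceed the length of any single transcript. The order of genes below depends on this choice, and other lengths were not tried. In Model TXNRD1 was highest at 37.6 CPM per kilobase, followed by KEAP1 (27.4), HMOX1 (10.3), NFE2L2 (9.30), GCLC (6.76), GCLM (3.52), OSGIN1 (1.89), NQO1 (1.64) and SRXN1 (1.53). On this scale GCLC, the catalytic subunit, stood above its modifier GCLM in every group, at 10.3 against 7.89 in FUCO-2 and 14.3 against 7.74 in RES. HMOX1 passed KEAP1 in FUCO-2 by mean (34.6 against 33.5), a gap within the spread of HMOX1's libraries. TXNRD1 reached 84.0 in RES.

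How far the 9 moved together was described with Pearson's r of log2 CPM over the 18 libraries, which share groups, and over the 15 without RES. GCLC and TXNRD1 were closest, at 0.992 over 18 and 0.980 over 15. HMOX1 and GCLM had 0.735 over 18 and 0.952 over 15, and HMOX1 and TXNRD1 0.467 and 0.874. KEAP1 and SRXN1 had 0.458 over 18 and 0.925 over 15. These values with HMOX1 or KEAP1 were lower with RES in the set, the group in which neither was called against Model. For NFE2L2 and KEAP1 the values were -0.251 and -0.0856.

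Among 13068 genes with a mean of at least 1 CPM, the 5 whose pattern over the 18 libraries was most like a given member's were named by r alone. For GCLM they were SQSTM1 (0.960), GART (0.951), YBX3 (0.948), TPD52L1 (0.943) and TSR1 (0.936). For SRXN1 they were NPM3 (0.958), SQSTM1 (0.950), NAB2 (0.948), TPCN1 (0.947) and EML2 (0.938). HMOX1's were NLRP1 (0.939), AMZ1 (0.930), NOB1 (0.911), ADCY7 (0.902) and HSPA6 (0.892), and NQO1's were FECH (0.937), POP1 (0.933), TNFRSF11A (0.927), UGDH (0.926) and ANK3 (0.925). SQSTM1 was on the lists of both GCLM and SRXN1. HSPA6 is an inducible heat shock protein and FECH the ferrochelatase that completes heme.

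Other genes of the pathway were counted in 6 lists of 57 genes, 54 of them tested. In FUCO-2 against Model 23 rose, 2 fell and 29 were not called, with a median log2 fold change of 0.27. Of all tested genes 10.8% rose and 9.71% fell there. RES gave 26, 9 and 19, with a median of 0.20, where 24.4% of all genes rose and 25.1% fell. At the lower doses no listed gene rose, where 0.289% of all genes rose in FUCO-0.5 and 0.893% in FUCO-1. None among 54 is thus near the background. There were 4 that fell in FUCO-0.5 and 2 in FUCO-1, where 1.16% and 2.32% of all genes fell.

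Model against Con gave 9 higher, 5 lower and 40 not called, against 8.43% of all genes higher and 9.12% lower. Some of the listed genes moved further there than any of the 9. GPX2, a glutathione peroxidase, read 1.503, 0.716 and 0.541 CPM in Con and 5.98, 5.45 and 4.44 in Model, which is 2.52 higher on the log2 scale (SE 0.28, adjusted p = 9.52e-07). AKR1C1, an aldo-keto reductase, read 37.3, 15.3 and 15.2 CPM in Con and 48.2, 50.6 and 45.4 in Model, a change of 1.09 (SE 0.21, adjusted p = 0.000634). Con and Model did not overlap for either gene.

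**Figure D3:**
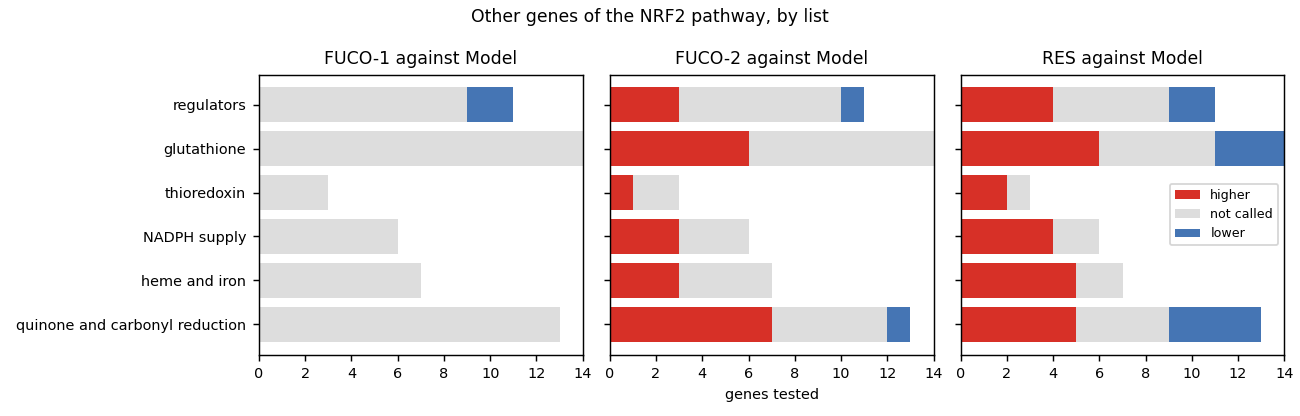
Number of tested genes in each of 6 lists (horizontal axis) that were called higher (red), not called (grey) or called lower (blue) in FUCO-1, FUCO-2 and RES, each against Model. In FUCO-2 23 of the 54 are red and 2 blue, in RES 26 are red and 9 blue.

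The 11 regulators hold relatives, partners and degraders of NRF2. In FUCO-2 3 rose and 1 fell, and in RES 4 rose and 2 fell, against Model. Of all genes 10.8% rose and 9.71% fell in FUCO-2, and 24.4% rose and 25.1% fell in RES. The falls, and the counts in RES, thus set the list little apart. SQSTM1, the autophagy receptor p62, which binds KEAP1, read 144, 161 and 146 CPM in Model, 196, 199 and 198 in FUCO-1, 313, 326 and 228 in FUCO-2 and 331, 328 and 288 in RES, with no overlap between Model and any of these groups. It rose by 0.94 in FUCO-2 (SE 0.12, adjusted p = 7.69e-06) and 1.07 in RES (adjusted p = 1.12e-07). RBX1, the RING subunit of the KEAP1 ligase, fell by 0.27 in FUCO-2 (adjusted p = 0.0414) with overlapping libraries. The 4 genes that fell in FUCO-0.5, named after their values were seen, were the small MAF partners MAFF (-0.98), MAFG (-0.37) and MAFK (-0.76), and SLC3A2 (-0.43). MAFF (-0.85) and MAFK (-0.56) fell in FUCO-1 also, and MAFF fell by 0.77 in RES (adjusted p = 0.000320). MAFK read 34.5 ± 0.812 CPM in Con, 53.7 ± 8.13 in Model, 31.7 ± 3.62 in FUCO-0.5, 36.4 ± 4.21 in FUCO-1 and 36.0 ± 1.39 in RES. It was called higher in Model than in Con (0.64, adjusted p = 0.000710), while MAFF (0.41) and MAFG (0.03) were not called there.

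Of 14 tested glutathione genes 6 rose and none fell in FUCO-2, and 6 rose and 3 fell in RES. The shares of all genes were 10.8% higher and 9.71% lower in FUCO-2, and 24.4% and 25.1% in RES, so the 3 of 14 that fell in RES lie near the background. The cystine importer's chains SLC7A11 and SLC3A2 rose in both. SLC7A11 read 48.9, 57.2 and 53.5 CPM in Model, 77.1, 90.3 and 84.8 in FUCO-2 and 143, 158 and 139 in RES. Its log2 fold change was 0.66 in FUCO-2 (adjusted p = 5.71e-05) and 1.46 in RES (SE 0.10, adjusted p = 1.44e-11). For SLC3A2 the values were 0.36 and 1.25. SLC3A2 was called lower in Model than in Con (-0.40, adjusted p = 0.00172), while SLC7A11 was not called there (-0.22, adjusted p = 0.147). SLC3A2 read 261 ± 35.7 CPM in Con, 254 ± 17.1 in FUCO-2, which overlapped with Con, and 472 ± 27.3 in RES, which did not. The Con libraries of SLC7A11 (58.8 to 66.4 CPM) all lay below those of FUCO-2. ABCC4, an exporter of conjugates, rose by 0.48 in FUCO-2 and 1.27 in RES. The exporters ABCC2 and ABCC3 rose in FUCO-2 (0.38 and 0.49) and fell in RES (-0.35 and -0.31). Of the 3 thioredoxin genes 1 rose in FUCO-2 and 2 in RES, and TXN, thioredoxin itself, rose in both (0.39 and 0.90).

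The NADPH list holds 6 genes that supply the reductant that glutathione and thioredoxin reductases use. ME1, cytosolic malic enzyme, read 35.5, 38.9 and 35.2 CPM in Model, 60.6, 78.5 and 68.9 in FUCO-2 and 155, 158 and 139 in RES. The 3 groups did not overlap. Its log2 fold change was 0.92 in FUCO-2 (SE 0.12, adjusted p = 4.51e-06) and 2.04 in RES (SE 0.12, adjusted p = 3.82e-13). TKT, a transketolase, rose by 0.53 in FUCO-2 and 0.29 in RES. Together, 3 of the 6 rose in FUCO-2 and 4 in RES, and none fell. Of all genes 10.8% rose and 9.71% fell in FUCO-2, and 24.4% rose and 25.1% fell in RES.

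Of the 7 other genes of heme and iron 3 rose in FUCO-2 and 5 in RES, where 10.8% and 24.4% of all genes rose. SLC48A1, which carries heme across membranes, read 11.6, 12.2 and 11.7 CPM in Model, 22.0, 22.1 and 20.4 in FUCO-2 and 21.6, 23.3 and 21.1 in RES. The treated groups overlapped each other and not Model. It rose by 0.86 in FUCO-2 (SE 0.093, adjusted p = 5.50e-07) and 0.89 in RES (adjusted p = 1.96e-08). The ferritin chains FTL (0.61) and FTH1 (0.62) rose in RES and were not called in FUCO-2 (0.18 and 0.41).

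Of 13 tested genes for quinone and carbonyl reduction 7 rose and 1 fell in FUCO-2, and 5 rose and 4 fell in RES. Of all genes 10.8% were higher and 9.71% lower in FUCO-2, and 24.4% and 25.1% in RES. The counts in RES thus set the list little apart. AKR1B10, an aldo-keto reductase, read 0.877, 1.17 and 0.866 CPM in Model, 2.48, 3.73 and 2.02 in FUCO-2 and 0.929, 0.915 and 0.840 in RES. It rose by 1.501 in FUCO-2 (SE 0.32, adjusted p = 0.00159) and was at -0.11 in RES (adjusted p = 0.822). PTGR1, a prostaglandin reductase, rose by 2.07 in RES (SE 0.15, adjusted p = 6.11e-11) and was at 0.35 in FUCO-2, not called. EPHX1, microsomal epoxide hydrolase, fell in both, by 0.56 and 0.74. AKR1C2 rose in FUCO-2 (0.97, adjusted p = 0.0404), while AKR1C1 (-1.10), AKR1C3 (-1.19) and ALDH3A1 (-1.005) fell in RES. AKR1C1 was at 22.4 ± 0.505 CPM in RES and 22.6 ± 12.8 in Con. The AKR1C genes are similar in sequence, so reads may be split between them and their values are uncertain.

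The other lists, 3 in number, cover stress responses that share inducers with NRF2. All 5 tested heat shock genes rose in FUCO-2 (median 0.60), where 10.8% of all genes rose. In RES 3 rose and HSPA1A fell (median 0.23), where 24.4% of all genes rose and 25.1% fell. HSPA1A, an inducible chaperone, read 3.45, 4.23 and 3.95 CPM in Model, 8.24, 8.996 and 7.98 in FUCO-2 and 1.78, 2.15 and 2.10 in RES, so the treated groups lay on either side of Model without overlap. Its log2 fold change was 1.12 in FUCO-2 (adjusted p = 4.14e-06) and -0.95 in RES (adjusted p = 3.14e-05).

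Of the 5 genes of the metallothionein list, which answer to metals, 4 were tested and rose in both. Of all genes 10.8% rose in FUCO-2 and 24.4% in RES. MT1F was not tested and held at most 2 counts in a library. MT1X held 0 to 2 counts and MT1E 1 to 3 in the Model libraries. Both passed the filter only through groups where they were high, which partly set the count of 4. MT2A went from 0.713, 1.17 and 0.542 CPM in Model to 30.5, 43.0 and 19.6 in FUCO-2 and 13.6, 13.9 and 13.4 in RES. The zinc exporter SLC30A1 rose by 1.74 in FUCO-2 and 1.495 in RES. Of 6 ATF4 targets, the amino acid response, 3 rose in FUCO-2 and 5 in RES, with medians of 0.25 and 0.72. Of all genes 10.8% and 24.4% rose there. PSAT1 of serine synthesis (0.95) and CHAC1, which degrades glutathione (0.90), were among those in RES. At the lower doses none of the 6 rose over Model, where 0.289% (FUCO-0.5) and 0.893% (FUCO-1) of all genes rose, so none is near the background. Against Model 4 fell in FUCO-0.5 (median -0.49) and 3 in FUCO-1 (median -0.26), where 1.16% and 2.32% of all genes fell. FUCO-2 against Con had none higher and 1 lower, near the background of 13.0% of all genes called higher and 11.9% called lower. In FUCO-2 against FUCO-1 all tested genes of the 3 lists rose, 5 of heat shock, 4 of the metallothionein list and 6 ATF4 targets. Of all genes 4.07% rose there. The filter's limit on MT1X and MT1E holds here too.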

How the data were processed

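Counts of reads per gene were used from 18 RNA-seq libraries of Hep3B cells, 3 in each of 6 groups, matched to groups by their titles. The authors trimmed paired-end reads with fastp, aligned them with STAR to GRCh38.p14 and made the deposited counts with featureCounts, without normalization. Strand use and the treatment of reads with several matches are not given in the sources used here. Replicates were described as biological.

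Counts were tested with edgeR 4.0.16 in R 4.3.3 (filterByExpr with minimum count 10 and minimum total 15, TMM, prior count 0.125), a quasi-likelihood model with a coefficient for each group over the 18 libraries. SEs were derived from the F statistic. The study's own tool, DESeq2 (here 1.42.0), was an alternative, and both were tested on simulated counts. Other alternatives were 2 groups or 15 libraries in the fit, another scaling (RLE), other filters, a replicate block, the DEG rule and leaving out each library.

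The 9 genes and all lists were chosen with earlier results of these data known. The 9 are given in full. From the 6 pathway lists were named the called genes with the 5 largest rises and 5 largest falls in FUCO-2 and in RES against Model, and other listed genes were named after their values were seen. The comparison of RES with FUCO-2 was added after the data were seen. Reads carry no molecular identifiers. Values of 1 listed gene are not reported singly here.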

Additional observations from a re-analysis of the deposited data

Results flagged for a closer look

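The effect of FUCO differed between doses in the direct comparison of FUCO-2 with FUCO-1, whose libraries both carried FFA. By edgeR's quasi-likelihood test the log2 difference was 1.17 for HMOX1, 0.87 for GCLM, 0.79 for SRXN1, 0.41 for GCLC and 0.37 for TXNRD1, and all 3 FUCO-2 libraries lay above all 3 FUCO-1 libraries for each of them. The calls of SRXN1, GCLC and TXNRD1 were lost when single libraries were left out, with the values given above. Those of HMOX1 and GCLM were kept in all alternatives run, except that GCLM missed the DEG rule.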

How the results depend on the processing

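Under the DEG rule, which adds the threshold of 1 on the log2 fold change, 0 of the 9 genes passed in Model against Con, 0 in FUCO-1 and 4 in FUCO-2 against Model, 1 in FUCO-2 against FUCO-1, 4 in FUCO-2 and 5 in RES against Con, and 1 in RES against FUCO-2. Leaving out 1 library at a time gave 1 to 4 called genes in Model against Con, 1 to 2 in FUCO-1 against Model and 2 to 6 in FUCO-2 against FUCO-1. Same-numbered libraries of different groups had correlations of their deviations from -0.204 to 0.194 (median 0.0239, 7 of 45 pairs over 0.1). Among replicate 2 libraries of the groups other than RES all were positive, from 0.0251 to 0.194. Differently numbered libraries were not compared, so these values cannot decide whether replicates were paired. With a replicate block the counts were 3, 0, 2, 7, 7, 5, 8, 8 and 7 in the 9 comparisons, equal to those without it.

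Some small log2 fold changes, none of them called, turned sign when 1 library was left out. In Model against Con the range was -0.0302 to 0.0343 for NFE2L2 and -0.0712 to 0.48 for SRXN1, and in RES against Con it was -0.0081 to 0.17 for KEAP1. In FUCO-0.5 against Model it was -0.11 to 0.0752 for KEAP1, -0.32 to 0.10 for SRXN1 and -0.0014 to 0.10 for HMOX1. NFE2L2 in FUCO-1 against Model ran from -0.0532 to 0.0810 and GCLM in RES against FUCO-2 from -0.11 to 0.0948. No sign turned in the other alternatives. Over all 9 genes and comparisons, leaving out a library gave 435 values of the same sign and on the same side of the threshold. Of the others, 28 lost and 5 gained a call, and 18 turned sign. The other alternatives gave 532, 4 and 4. The causes were not tested. Counts of 39 to 270 for NQO1 and 45 to 349 for SRXN1 limit the precision of these genes.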
